A study of Mus musculus with 6 samples.

Results

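The lipoxygenase and prostaglandin enzymes are 10 genes, Alox5, Alox5ap, Alox12, Alox15, Lta4h, Ltc4s, Ptgs1, Ptgs2, Ptges and Hpgds, out of 20018 genes named on the array. They were taken by symbol, as every non-control probe whose RefSeq accession names 1 of them, which gave 12 of 55681 probes. The arrays measured RNA of red pulp macrophages sorted by flow cytometry from the spleens of C57BL/6 mice 8 to 9 weeks old. One group was 3 wild-type mice (2 males and 1 female, replicate 3) and the other was 3 male mice with a Bach2 knock out, so sex was not balanced. Bach2 is a transcription factor that pairs with small Maf proteins. The labels name neither the deleted part of Bach2, nor the cells that lack it, nor the markers of the sort. The 10 genes were chosen by their function and by their log2 differences between knockout and wild type on these same arrays, so those differences are described here without a test.

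These enzymes turn arachidonic acid, a fatty acid released from membranes, into lipid signals that act on nearby cells. The lipoxygenase Alox5, helped by its membrane partner Alox5ap, starts the leukotriene branch, which Lta4h and Ltc4s complete. The cyclooxygenases Ptgs1 and Ptgs2 start the prostaglandin branch, which Ptges completes to prostaglandin E and Hpgds to prostaglandin D. Alox12 is the lipoxygenase of platelets, and Alox15 is best known from resident peritoneal macrophages and eosinophils.

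Each mouse gave 1 single-colour array, and all 6 arrays lay on 1 slide with 1 scan time. Wild-type RNA was in array row 1 and knockout RNA in row 2, which cannot be told apart from genotype, while each array column had a wild-type and a knockout mouse. The share of spots well above background was 37.5% to 51.5%. The array's 75th percentile of processed signal ran from 869.7 (wild-type replicate 3) to 3209 (knockout replicate 3). Levels are log2 processed signal minus that percentile, and a difference is that of the knockout mean from the wild-type mean, with the SE of limma's fit. Having 3 arrays per genotype limits how precise any value is. The brighter Bach2 probe read -1.09, -0.22 and -1.54 in wild type and -2.42, -3.91 and -1.42 in knockout replicates 1, 2 and 3. A second Bach2 probe did not exceed background on any array. Neither probe can be placed against the deleted part. Of 17 red pulp macrophage markers on the array, all 17 were well above background on at least 3 arrays. All 17 lay below 0 in knockout, with a median difference of -0.50. Of all probes well above background on at least 3 arrays, 61.8% lay below 0, with a median of -0.12. In array columns 1, 2 and 3 the 2 brightest markers, C1qc and Trf, differed by 0.20, 0.03 and -1.84 and by -0.04, -0.12 and -1.95. Spic differed by -0.18, -0.57 and -0.51. Column 3 holds the arrays with the lowest and the highest 75th percentile, and the part of scaling was not tested. Of 13 marker lists of spleen and blood cells, the summed levels of 2 did not overlap between genotypes. Natural killer cell genes stood at 31.1 to 54.1 in wild type and 87.7 to 296 in knockout, and marginal zone macrophage genes at 55.2 to 81.2 and 17.3 to 32.1. The marginal zone list has only 3 genes, 2 of them well above background on at least 3 arrays, and its sum is mostly Marco. Marco differed by -1.60 ± 0.63 (SE), while the median over the 3 genes was -0.33. Of the lists whose sums overlapped, those of T cells and neutrophils leaned higher in knockout. Above 0 were 10 of 11 T cell genes (median difference 0.93) and 10 of 12 detected neutrophil genes (median 1.20). In the other overlapping lists the median over detected genes ran from -0.59 (platelets and megakaryocytes) to 0.58 (basophils and mast cells). The part of these cells in the results below was not tested. In RNA of bulk cells, fewer cells of a type and less RNA per cell cannot be told apart.

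Across all 55681 probes, limma with Benjamini-Hochberg adjustment called 0 higher and 0 lower at an adjusted p under 0.05 (0% in each direction, lowest adjusted p = 0.714). Without adjustment, 268 probes (0.481%) were higher and 224 (0.402%) lower at a p under 0.05, together 0.884%. Taking each gene by its brighter probe, 8 of the 10 genes were well above background on at least 3 arrays and 6 on all 6. Ptgs2 was so on 1 array and Alox15 on none. The difference lay below 0 for 6 of the 10 genes, where 44.0% of all probes and 61.8% of the 23062 probes well above background on at least 3 arrays lay below 0. The median difference was -0.05 over the 10 genes, against 0.09 over all probes. Among those well above background on at least 3 arrays, it was -0.06 over the 8 genes, against -0.12 over all such probes. Of the brighter probes, that of 1 gene, Alox12, did not overlap between genotypes and was lower in knockout, which held for 1.90% of all probes and 2.09% of those well above background on at least 3 arrays. The dimmer probe of Ptges did not overlap and was higher, which held for 0.673% and 1.20%. For 8 of the 10 genes the difference was smaller than its SE.

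**Figure D1:**
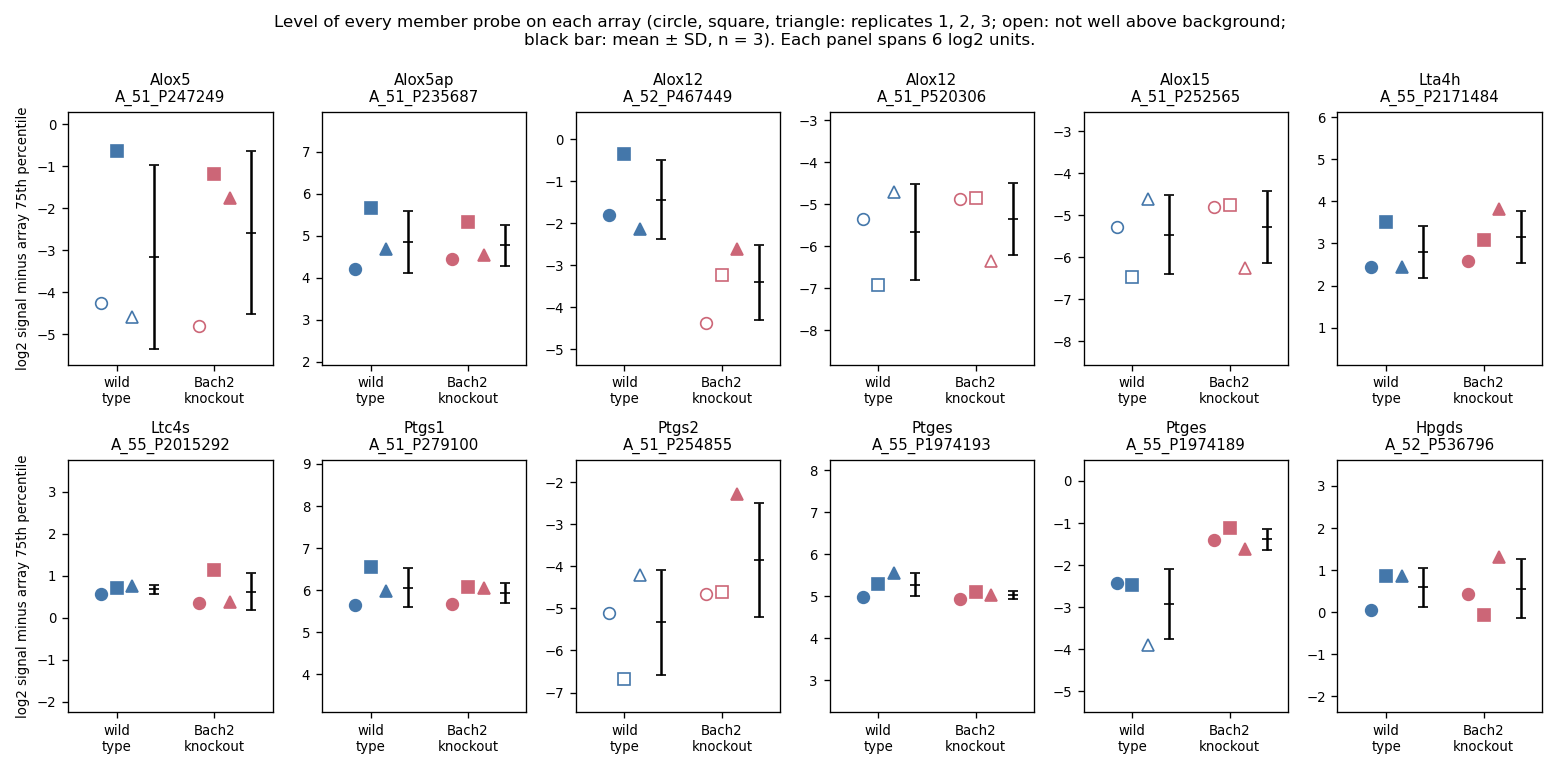
Level of each of the 12 member probes on each array, as log2 processed signal minus the array's 75th percentile, for 3 wild-type (blue) and 3 Bach2 knockout (red) mice; open symbols were not well above background and black bars are mean ± SD (n = 3). The Alox12 probe A_52_P467449 lies lower and the Ptges probe A_55_P1974189 higher in every knockout array, whereas Alox5 splits within each genotype.

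Alox5, the 5-lipoxygenase that makes the leukotriene precursor, was read by 1 probe that split the arrays within each genotype. Its level was -4.26, -0.63 and -4.58 in wild-type replicates 1, 2 and 3 and -4.80, -1.19 and -1.76 in knockout replicates 1, 2 and 3. Wild-type replicate 2 and knockout replicates 2 and 3 were well above background and the other 3 arrays were not, so the genotypes overlapped over nearly their whole range. The unscaled processed signal ran from 36.3 to 1096, a 30.2-fold range. Wild type averaged -3.16 ± 2.19 (SD, n = 3), knockout -2.59 ± 1.94 (SD, n = 3), a difference of 0.57 ± 1.16 (SE). It became -0.14 without wild-type replicate 3, -0.13 without knockout replicate 2 and 1.83 without wild-type replicate 2.

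The same 3 arrays were the highest for 2 of 13 lists of cell markers, those of inflammatory monocytes and of basophils and mast cells. Wild-type replicate 2 and knockout replicate 2 were also both among the 3 highest for most other lists. Those were red pulp macrophages, platelets, eosinophils, neutrophils, peritoneal macrophages, dendritic cells and T cells. The summed level of the 6 monocyte genes on the array, all well above background on at least 3 arrays, was 51.0, 44.2 and 38.4 on the arrays with Alox5 and 14.0 to 22.4 on the others. Within this list Chil3, a secreted chitinase-like protein, read 3.01, 5.05 and 3.65 in wild type and 3.86, 4.97 and 4.36 in knockout. Chil3 alone made up most of the sum on every array. For the 13 basophil and mast cell genes, 6 of them well above background on at least 3 arrays, the summed level was 7.17, 7.0 and 5.41 against 2.68 to 3.83. Their ranges were 2.68 to 7.17 in wild type and 3.35 to 7.0 in knockout, and Ms4a2, the beta chain of the IgE receptor, was at background on all 6 arrays. The part of these cells in the Alox5 signal was not tested.

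**Figure D2:**
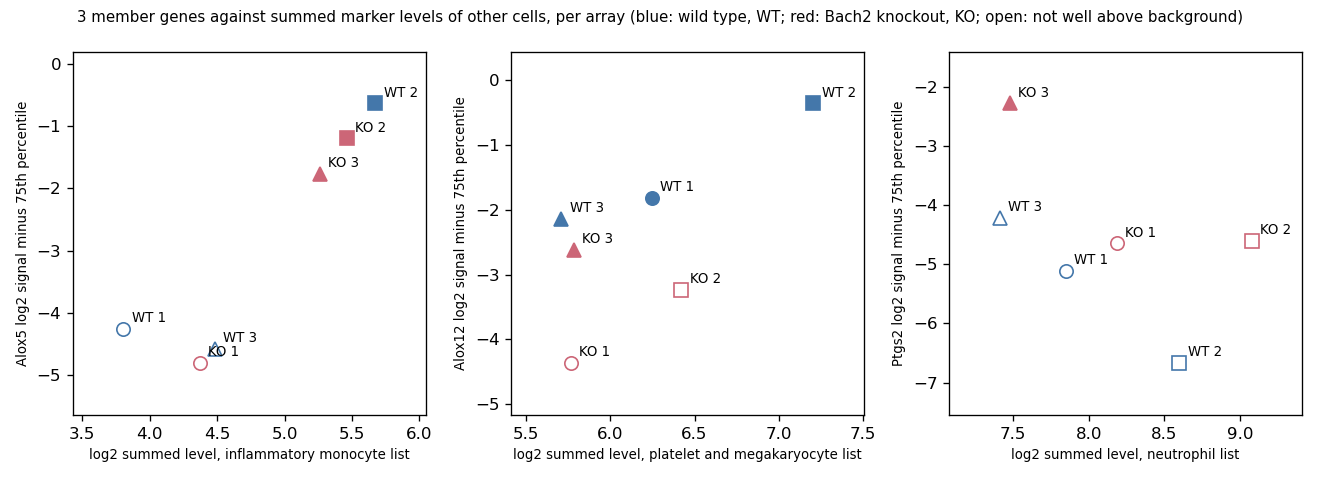
Level of Alox5, Alox12 and Ptgs2 (log2 processed signal minus the 75th percentile) against the log2 summed level of marker genes of inflammatory monocytes, platelets and megakaryocytes, and neutrophils, 1 point per array. The 3 arrays with Alox5 above background (wild-type replicate 2, knockout replicates 2 and 3) have the highest monocyte sums, which are mostly Chil3. Ptgs2 is above background in knockout replicate 3 only. The part of these cells in the readings was not tested.

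Alox5ap, the membrane protein that presents arachidonic acid to Alox5, was well above background on all 6 arrays. It read 4.21, 5.66 and 4.68 in wild type and 4.45, 5.34 and 4.53 in knockout. Replicate 2 was the highest of each genotype, and the genotypes overlapped. The difference was -0.08 ± 0.66 (SE), and its sign turned under 5 of 13 alternatives, some of which leave the difference itself unchanged.

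Lta4h, the hydrolase that completes leukotriene B4, read 2.43, 3.51 and 2.44 in wild type and 2.58, 3.09 and 3.81 in knockout, a difference of 0.37 ± 0.66 (SE). Knockout replicate 3 was the highest array, and without it the difference was 0.05. Ltc4s, the synthase that adds glutathione to make leukotriene C4, read 0.56, 0.70 and 0.76 in wild type and 0.35, 1.14 and 0.37 in knockout. The wild-type spread of Ltc4s was small, 0.67 ± 0.10 (SD, n = 3), and lay inside that of knockout, 0.62 ± 0.45 (SD, n = 3). The difference of Ltc4s was -0.05 ± 0.61 (SE). Both genes were well above background on all 6 arrays, and their genotypes overlapped.

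Alox12, the platelet-type lipoxygenase, had the widest gap between genotypes of the 10 brighter probes. Its brighter probe read -1.82, -0.36 and -2.14 in wild type and -4.37, -3.24 and -2.61 in knockout. All 3 wild-type arrays were well above background, and of the knockout arrays only replicate 3 was. After scaling, every knockout array was below every wild-type array, with wild-type replicate 3 and knockout replicate 3 the closest. Unscaled processed signals overlapped, at 494, 1326 and 197 in wild type and 75.7, 125 and 524 in knockout. The mean scaled level was -1.44 ± 0.95 (SD, n = 3) against -3.41 ± 0.89 (SD, n = 3). The difference was -1.97 ± 0.74 (SE), or 3.91-fold higher in wild type, and rests partly on arrays at background. Taken by array column, the Alox12 differences were -2.55, -2.88 and -0.47 in columns 1, 2 and 3. The brighter Bach2 probe differed by -1.33, -3.69 and 0.12 in the same columns. Array columns are slide positions and pair no animals, and a link between the Alox12 and Bach2 readings was not tested.

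The Alox12 difference ran from -2.36 to -1.43 when each mouse was left out, the latter without wild-type replicate 2. With each array centred on its median the genotypes overlapped narrowly, with a lowest wild-type level of 1.70 and a highest knockout level of 1.73. They did not overlap with quantile normalization or with normexp background correction, where the difference was -1.17. The second Alox12 probe stayed at background on all 6 arrays, so it bears on no difference.

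Genes of platelets and megakaryocytes were read beside Alox12. Of 14 on the array 8 were well above background on at least 3 arrays, 7 of them below 0 in knockout, with a median difference of -0.59. Over all probes so detected, 61.8% lay below 0, with a median of -0.12. Pf4, a chemokine of platelet granules, read 4.88, 5.75 and 2.08 in wild type and 2.38, 4.07 and 1.71 in knockout, and Clec1b, the receptor CLEC-2, differed by 0.00 ± 0.62 (SE). The summed level was 52.3 to 148 in wild type and 54.4 to 85.7 in knockout, so the genotypes overlapped. Gp9 and Itgb3, subunits of platelet surface receptors, were well above background on all 6 arrays and differed by -0.46 ± 1.02 and -0.37 ± 0.74 (SE). Gp1ba, another such subunit, was so on 2 wild-type arrays only and differed by -1.99 ± 0.77 (SE) without overlap. Itga2b, Gp5 and Gp6 were at background on all 6 arrays. The part of platelets in the Alox12 difference was not tested.

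Among the named genes whose level most resembled that of Alox12 over the 6 arrays were Zfp865, Tmem82, Gripap1 and Tmem259, with Pearson r from 0.980 to 0.997 as the measure of likeness. Among 11370 genes compared, 87 had an r above 0.9. Likeness to a gene that differs between genotypes picks genes that differ the same way, and these 4 were lower in every knockout array. Their differences ran from -0.69 (Tmem82) to -0.36 (Tmem259), nearer to 0 than the -1.97 of Alox12.

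Alox15, the 12/15-lipoxygenase, lies near Alox12 on chromosome 11 (GRCm38). Its probe was well above background on 0 of 6 arrays, with processed signals of 19.1 to 56.2. At that depth no level and no difference was detectable. Of the marker lists of the cells it is known from, 6 of 8 resident peritoneal macrophage genes and 7 of 8 eosinophil genes were well above background on at least 3 arrays. Gata6, Saa3 and Epx were at background on all 6. The summed level of the eosinophil list was 238 to 492 in wild type and 222 to 399 in knockout, and that of the peritoneal list 44.5 to 129 and 49.3 to 99.1, so both overlapped.

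Ptgs1, the constitutive cyclooxygenase, was well above background on all 6 arrays with processed signals of 54845 to 212156. It read 5.64, 6.55 and 5.98 in wild type and 5.66, 6.08 and 6.05 in knockout. The genotypes overlapped, with a mean of 6.05 ± 0.46 (SD, n = 3) and 5.93 ± 0.23 (SD, n = 3) and a difference of -0.12 ± 0.62 (SE).

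Ptgs2, the inducible cyclooxygenase, was at background on 5 arrays and above it on 1. Its probe was printed as 10 spots per array, of which 10 of 10 were well above background in knockout replicate 3 and 0 in each of the other 5 mice. The level there was -2.28, with an SD of 0.09 between the 10 spots, so the reading was not that of a single spot. The other arrays read -5.11, -6.67 and -4.21 in wild type and -4.65 and -4.60 in knockout. As processed signal, knockout replicate 3 stood at 662 and the others at 16.7 to 62.3. The mean difference of 1.49 ± 0.86 (SE) rested on that mouse and was 0.71 between arrays at background without it. Neutrophils and monocytes can express Ptgs2. The summed level of the neutrophil list was 170 to 388 in wild type and 178 to 540 in knockout, with 178 in knockout replicate 3. That of the monocyte list was 14.0 to 51.0 and 20.7 to 44.2, with 38.4 in knockout replicate 3. The part of these cells in the Ptgs2 reading was not tested.

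Ptges, the inducible prostaglandin E synthase, was read by 2 probes of the same accession that disagreed. The brighter probe read 4.99, 5.30 and 5.54 in wild type and 4.93, 5.11 and 5.04 in knockout. Its genotypes overlapped, and the difference was -0.25 ± 0.60 (SE). The dimmer probe read -2.42, -2.48 and -3.89 in wild type and -1.41, -1.12 and -1.62 in knockout, a difference of 1.55 ± 0.66 (SE), or 2.92-fold higher in knockout. Only wild-type replicate 3 was not well above background, and every knockout array was above every wild-type array. Within array columns 1, 2 and 3 this probe differed by 1.01, 1.36 and 2.27 and the brighter one by -0.06, -0.19 and -0.50.

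Leaving out each mouse moved the dimmer Ptges probe between 1.07, without wild-type replicate 3, and 1.80. The groups stayed apart with median centring, quantile normalization and normexp. In the authors' deposited table, which lists this probe and no other of the 12, the 3 wild-type arrays stood at -0.43, -0.44 and -1.91, the knockout arrays at 0.57, 0.86 and 0.43, as log2 values centred on the probe's median. The files do not place the 2 probes within the gene, which spans 30889471 to 30931020 of chromosome 2 (GRCm38), so which transcripts each one reads was not tested.

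Hpgds, the prostaglandin D synthase of blood cells, read 0.06, 0.86 and 0.86 in wild type and 0.43, -0.08 and 1.31 in knockout. It was well above background on all 6 arrays. The highest and the lowest array were both knockout, and the difference was -0.04 ± 0.66 (SE), which became -0.41 without knockout replicate 3 and 0.28 without knockout replicate 2.

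**Figure D3:**
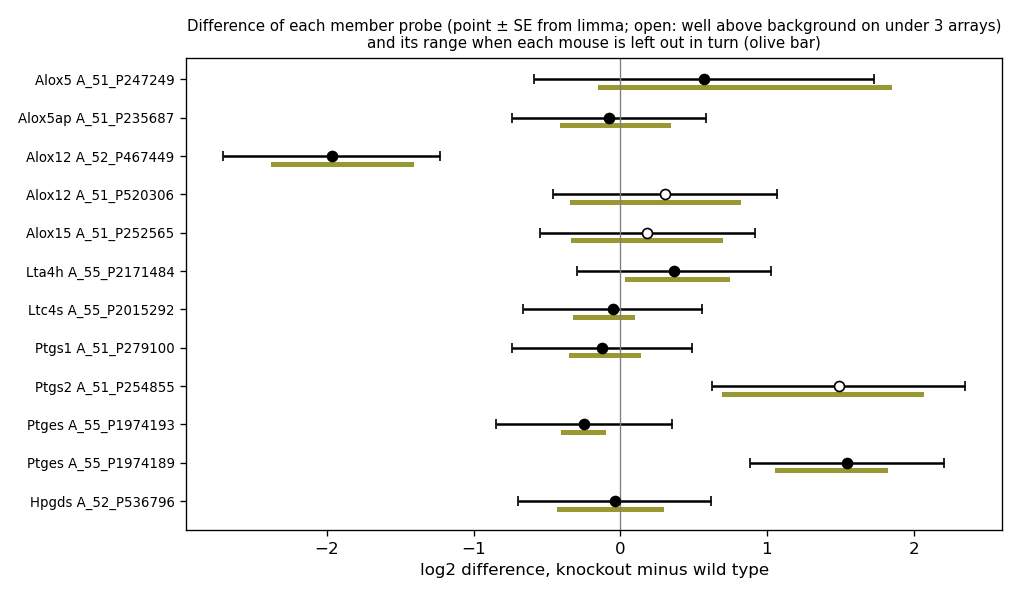
Log2 difference (knockout minus wild type) of each of the 12 member probes ± SE from limma, with the range over leaving out each mouse as an olive bar; open points were well above background on under 3 arrays. The bars of Alox12 A_52_P467449 (-2.36 to -1.43), Ptgs2 (0.71 to 2.05), Lta4h (0.05 to 0.73), Ptges A_55_P1974189 (1.07 to 1.80) and, on the other side, Ptges A_55_P1974193 (-0.39 to -0.12) do not reach 0, and the other 7 span it.

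Promoter sequences are shown for Alox12, Ptges and Ptgs2, the genes with a probe that separated the genotypes or that was read in 1 mouse only. They are from RefSeq (GRCm38.p6), 300 bases from 250 before to 50 after the start, 5′ to 3′ in the direction of the gene, at chr11:70255321-70255620 (minus strand), chr2:30903248-30903547 (minus strand) and chr1:150099781-150100080 (plus strand). The Ptges window lies inside the span of the gene rather than at its 5′ end. Capitals mark GGGCGG, the GC box, CACGTG, the E-box, and ACGTCA, part of the cyclic AMP response element.
Alox12: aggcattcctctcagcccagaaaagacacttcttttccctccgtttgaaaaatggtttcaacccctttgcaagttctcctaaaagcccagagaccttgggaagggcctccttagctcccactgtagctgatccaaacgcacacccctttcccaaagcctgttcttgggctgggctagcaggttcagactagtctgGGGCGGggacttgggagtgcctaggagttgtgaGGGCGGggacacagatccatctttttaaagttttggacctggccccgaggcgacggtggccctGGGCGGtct
Ptges: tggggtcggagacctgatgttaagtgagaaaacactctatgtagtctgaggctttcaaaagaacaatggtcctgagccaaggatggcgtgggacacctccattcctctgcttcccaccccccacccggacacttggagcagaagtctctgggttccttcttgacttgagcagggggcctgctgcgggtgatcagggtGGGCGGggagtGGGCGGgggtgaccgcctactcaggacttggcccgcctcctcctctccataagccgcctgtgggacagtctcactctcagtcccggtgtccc
Ptgs2: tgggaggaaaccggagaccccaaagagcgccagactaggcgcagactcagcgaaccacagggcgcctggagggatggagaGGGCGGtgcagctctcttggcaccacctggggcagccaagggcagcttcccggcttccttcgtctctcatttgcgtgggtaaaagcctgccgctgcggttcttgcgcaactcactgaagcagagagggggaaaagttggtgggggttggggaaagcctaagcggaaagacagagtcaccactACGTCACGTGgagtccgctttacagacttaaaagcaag

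Letters of the sites that Bach and small Maf proteins are known to bind were searched on both strands in the 8 of 10 members with a promoter in the table, leaving out Alox5ap and Alox15. Each gene had a single window. Those of Ptges and Ptgs1 lie inside the gene, so sequence nearer its 5′ end was not searched. The letters TGAGTCA were in 0 of 8 and in 5.20% of all 32851 promoters of this length. The letters TGCTGA were in 0 of 8 and 19.5% of all. Its longer form TGCTGAG was in 0 of 8 and 7.84% of all. The Maf recognition element, which contains TGCTGA, was in 0 of 8 and 0.387% of all. GGGCGG was in 4 of 8 members (Alox5, Alox12, Ptges and Ptgs2) and 35.7% of all. Alox12 held it at positions 196, 229 and 292 of its window, counted from 1, and Ptges at 198 and 209. Ptgs2 alone of the 8 held CACGTG, at position 267, and ACGTCA, at position 263, which overlap by 2 bases. CACGTG was in 7.15% and ACGTCA in 7.51% of all promoters. These are matches of letters and say nothing of binding.

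Other genes of the pathway, 56 enzymes and 24 receptors and transporters, were taken from lists that name no member. Of 55 enzymes on the array 39 were well above background on at least 3 arrays, 12 above 0 and 27 below, with a median difference of -0.17, against -0.12 over all such probes. Of 24 receptors and transporters 15 were, 6 above 0 and 9 below, with a median of -0.06. Adjusted over all probes, limma called 0 of the 79, each with an adjusted p of at least 0.9999. Unadjusted, 2 enzymes and 1 receptor of the 79 had a limma p under 0.05, which held for 0.884% of all probes.

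The 10 other enzymes with the highest mean level had differences between -0.68 and 0.06. Tbxas1, the thromboxane synthase, differed by -0.17 ± 0.61, and Hpgd, which inactivates prostaglandins, by -0.11 ± 0.65 (SE). Pla2g15, a lysosomal phospholipase, gave -0.10 ± 0.61, and Pla2g7, which breaks down platelet-activating factor, -0.46 ± 0.66. Ptges3, a co-chaperone with prostaglandin E synthase activity, gave -0.37 ± 0.61, and Cotl1, a binding partner of Alox5, -0.68 ± 0.67. Akr1b3, an aldose reductase, gave -0.14 ± 0.61, Prxl2b, a prostaglandin F synthase, -0.46 ± 0.66, Cbr3, a carbonyl reductase, 0.06 ± 0.65, and Gpx4, which reduces lipid peroxides, -0.17 ± 0.67. All 10 were well above background on all 6 arrays, and of them Cotl1 differed by more than its SE. Cotl1 was also among the 4 detected enzymes with the smallest p.

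The other 3 of those 4 enzymes were Ephx2, Pla2g2f and Gstm1. Ephx2, the soluble epoxide hydrolase, read -2.25, -1.11 and -0.60 in wild type and -3.47, -4.00 and -1.95 in knockout, a difference of -1.82 ± 0.75 (SE). Its genotypes overlapped, and 1 of 3 knockout arrays was well above background. Pla2g2f, a secreted phospholipase, differed by 1.74 ± 0.92 and Gstm1, a glutathione transferase, by -0.94 ± 0.79 (SE). Ggt1, a gamma-glutamyl transferase that trims leukotriene C4, was the other enzyme with an unadjusted p under 0.05 and is named after its values were seen. It read -5.32, -5.46 and -4.67 in wild type and 0.52, -2.89 and -4.61 in knockout so the genotypes did not overlap, but it was well above background in knockout replicate 1 only.

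Among the receptors, Ptgir, the prostacyclin receptor, had the smallest p. It read -4.80, -2.88 and -4.25 in wild type and -1.07, -3.89 and -0.99 in knockout, with 1 of 3 and 2 of 3 arrays well above background, and differed by 1.99 ± 0.88 (SE). Its genotypes overlapped through knockout replicate 2. Ltb4r1, the leukotriene B4 receptor, differed by 0.91 ± 0.74 and Cysltr1, a receptor for cysteinyl leukotrienes, by -0.99 ± 0.79 (SE). Slco2a1, which takes up prostaglandins, gave 0.72 ± 0.67, and the exporters Abcc1 and Abcc4 gave -0.56 ± 0.66 and -0.04 ± 0.66. Ptger2, a prostaglandin E receptor, gave 0.08 ± 0.67, Fpr2, a receptor of lipid and peptide ligands, 0.11 ± 0.60, Gpr18 -0.06 ± 0.64, and the nuclear receptor Pparg -0.08 ± 0.63. Of the other receptors Ptger1, Ptgdr, Ptgfr and Ltb4r2 were not well above background on any array.

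**Figure D4:**
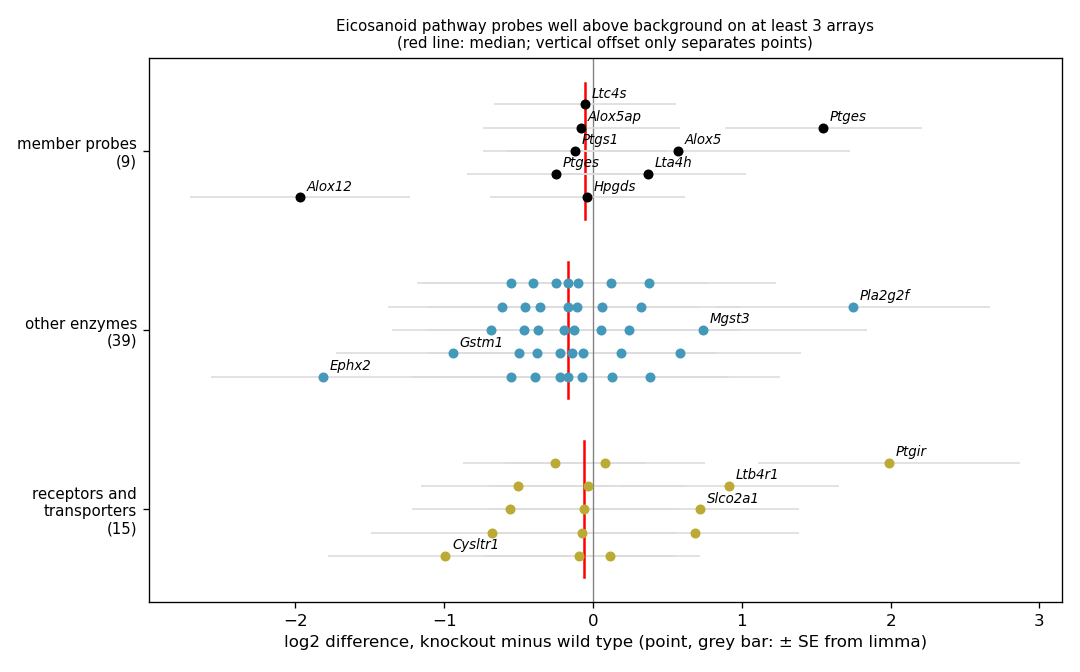
Log2 difference (knockout minus wild type, point, with ± SE from limma as a grey bar) of the probes well above background on at least 3 arrays, for 9 member probes, 39 other enzymes and 15 receptors and transporters; red lines are medians. Alox12 at -1.97 and Ephx2 at -1.82 are the lowest points, and Ptgir at 1.99 and Pla2g2f at 1.74 the highest.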

How the data were processed

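RNA of 6 mice was hybridised to single-colour Agilent mouse arrays. The authors deposited the scanner's intensity values for each spot. Agilent Feature Extraction made them, in version 10.7.3.1 per the file headers, while the submitters' processing notes name version 9.1. Per the file headers, the processed signal had its background removed and spatial trend corrected. The authors' deposited table covers 279 probes on a log2 scale. Comparison with the scanner data shows that they are scaled to the 75th percentile and centred per probe on the median, with a largest difference of 0.0709. Its wild-type columns have medians of 0.32, 0.34 and 0.28, its knockout columns of -0.29, -0.23 and -0.26.

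Here 59305 non-control spots per array were used. No spot was saturated. Outlier spots, 141 to 283 on an array, were left out, spots of a probe were averaged, and log2 processed intensity minus the array's 75th percentile was taken. Accessions were named through RefSeq genes of GRCm38 (26413 of 55681 probes). The array grid refers to mm9, so the table gave names and gene positions only. All probes were fitted in R 4.3.3 with limma 3.58.1 (lmFit, then eBayes) and Benjamini-Hochberg adjustment, after a test on simulated data. A gene stands by its brighter probe. Summed marker levels add the scaled linear signals. A probe was detected when well above background on at least 3 arrays. The members and lists were chosen with earlier results of these data known. Named pathway genes were the 10 enzymes and 8 receptors or transporters with the highest mean level and up to 4 detected genes of each list with the smallest p. For cell lists the 2 genes with the highest mean level were eligible, and others named are defining markers, chosen after their values were seen. Genes like Alox12 were the 5 with the highest Pearson r, without predicted and clone names, of which 1 is not reported here. Replicates were numbered in record order. Replicates are independent mice per the series' design text.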

Additional observations from a re-analysis of the deposited data

How the results depend on the processing

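Over 13 alternatives the count of probes called over the whole array was 0 in each direction, except with normexp background correction, which called 1 higher and 1 lower, neither with a gene name. For that alternative the median signal column stood in for the mean signal, which the scanner files lack. The number at an unadjusted p under 0.05 ran from 309 to 1428, and 0 other pathway genes were called under any alternative. Of the 10 members, 6 lay below 0 in the main analysis, 2 with median centring, and 3 to 7 when each mouse was left out, with 3 without knockout replicate 1. Median centring moved the difference of each of the 12 member probes up by the same amount. With either scaling, 3 of the 8 detected members lay below the median of detected probes. The cause of the changes on leaving out a mouse was not tested. The median difference of detected probes was -0.12, and 0.00 with median centring, where 4 members (Alox5ap, Ltc4s, Ptgs1 and Hpgds) turned from below to above 0. Of 154 recomputed values of the 12 member probes 28 changed sign. None of these were of the brighter Alox12 probe, of Ptgs2 or of either Ptges probe. Some of the 154 could not change sign. Fitting only detected probes or blocking on array column leaves each difference as it was, and keeping outlier spots changed only that of Ptgs2. The deposited value of the dimmer Ptges probe comes from the same scans. With array column as a block 0 probes were called, and 525 had an unadjusted p under 0.05, against 492. Array column is a position on the slide, not a pairing of animals. No paired analysis was possible because the labels of the genotypes share only 1 tag, P6. It is on wild-type replicate 3 and knockout replicate 3, the arrays of column 3, and its meaning is not stated. Without both of these mice Alox12 differed by -2.72 and the dimmer Ptges probe by 1.19. Background signal limits Alox15, the second Alox12 probe, Ptgs2 on 5 arrays and Alox5 on 3.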
